A study of Mus musculus with 24 samples.

Results

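The genes described here are 10 components of the mRNA methylation machinery that writes, reads and removes N6-methyladenosine (m6A): the writer genes Mettl3, Mettl14, Wtap and Virma, the reader genes Ythdf1, Ythdf2, Ythdf3 and Ythdc1, and the eraser genes Alkbh5 and Fto. They were chosen by name among the 21833 protein-coding genes of the deposited expression table, and each was found once. PolyA-enriched, strand-specific RNA sequencing covered 24 mouse tissue samples in 4 groups. AG were 3 adrenal glands of CRE - animals. AGM were 5 adrenal glands labelled MYCN +/-, CRE +, without tumor. TI were 8 tumors carrying the IGF2BP1 transgene with CRE +, of which 7 were labelled IGF2BP1 +/+ and 1 IGF2BP1 +/-. TIM were 8 tumors labelled IMP1/MYCN, CRE +, IMP1 being another name for IGF2BP1. Both transgenes sat at the Rosa26 locus behind a stop cassette, on a C57Bl6/N background, and were switched on by an iCRE driven from the Dbh promoter, so that recombination was limited to Dbh-expressing sympatho-adrenal cells and their descendants. The IGF2BP1 transgene lacked its natural 3' untranslated region. Of the TI samples, 7 were labelled tumor and 1 tumor adrenal gland, and of the TIM samples 5 were labelled tumor, 2 tumor adrenal gland and 1 tumor spine. The ages of the animals were not in the labels. The study reports different times to culling for the MYCN, IGF2BP1 and double transgenic animals, so age cannot be told apart from genotype among AGM, TI and TIM.

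N6-methyladenosine is the most common internal modification of mRNA. It is placed during transcription by a complex in which METTL3 carries the catalytic activity, METTL14 holds the RNA, WTAP keeps the pair in nuclear speckles and VIRMA directs methylation towards the 3' end of the message. YTH domain proteins bind the mark, YTHDC1 in the nucleus and YTHDF1, YTHDF2 and YTHDF3 in the cytoplasm, where they act on translation and decay, while ALKBH5 and FTO are the known demethylases. IGF2BP1, the protein encoded by the transgene in both tumor groups, is itself described as a reader that stabilises methylated mRNA.

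Levels are given as FPKM (fragments scaled to transcript length and library size), a measure per transcript length that the authors scaled with edgeR's trimmed mean of M-values after ComBat-seq batch correction. The reads behind each value could be recovered as whole numbers. Outside 126 genes that exceeded 1000 FPKM in a library, the recovered reads, which are those after batch correction and not the reads sequenced, were 12334076 to 23683176 per library. With these genes included, totals reached 1170004708 in AGM and 888626365 in TIM against at most 21353172 in AG and TI. The 126 genes held up to 98.6% of the recovered reads in AGM libraries, up to 97.3% in TIM libraries and at most 2.21% in AG and TI libraries, and the part of the batch correction in this was not tested. All AG samples came from run 1, all AGM samples from run 2, TI samples from run 1 (6), run 2 (1) and run 3 (1), and TIM samples from run 2 (3) and run 3 (5). Since AG shared no run with AGM or TIM, run and group cannot be told apart in those comparisons. TI and TIM differed in run as well, with no TIM sample from run 1. The names of the table's columns did not tie a library to its run. All 8 adrenal cortex markers were found. Their summed FPKM spanned 645 to 667 over the AG libraries and 4293 to 5373 over the AGM libraries, while the tumor libraries had sums of 0.0173 to 10.1 (TI) and 0.281 to 9.28 (TIM), with Cyp11b2 and Mc2r at a median of 0 in both tumor groups. Cyp11b2 was very low in AG as well, at 0.0351 to 0.0631 FPKM, against 311 to 665 in AGM. The 9 sympatho-adrenal markers, all found, summed to between 141 and 203 (AG), 1283 and 2159 (AGM), 207 and 1793 (TI), or 215 and 4688 (TIM). The mouse Igf2bp1 locus had 0 to 16 reads in TI and 3 to 81 in TIM, and the transgenes were not measured as features of their own. Mouse Mycn averaged 0.654 ± 0.147 FPKM (SD, n = 3) in AG, 0.778 ± 0.254 (n = 5) in AGM, 8.57 ± 5.27 (n = 8) in TI and 2.84 ± 1.18 (n = 8) in TIM.

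Differences were tested with limma on log2(FPKM + 1), a scale that understates the change of low genes. The fit used the 10171 genes that reached 1 FPKM in 3 or more libraries, with Benjamini-Hochberg adjustment over all of them and a false discovery rate (FDR) below 0.05 as the threshold. Of the 10 genes, 9 passed the filter. Mettl14 reached 1 FPKM in 0 of 24 libraries and was compared by an exact two-sided permutation test. In these bulk samples a smaller number of cells of one type cannot be told apart from less RNA per cell. P-values measure the spread between the samples, since nothing in the labels states how the samples relate to one another beyond their group.

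In the AG glands the order of mean levels per transcript length was Alkbh5 (5.05 FPKM), Ythdf1 (4.12), Ythdf3 (2.73), Fto (2.28), Ythdf2 (2.11), Wtap (1.77), Virma (1.54), Mettl3 (1.04), Ythdc1 (0.796) and Mettl14 (0.687). Of these neighbours, Fto and Ythdf2 overlapped in range, as did Ythdc1 and Mettl14. The demethylase Alkbh5 stood above 80.8% of the tested genes in AG by mean level, whereas Mettl14 stood above 22.8%. In both tumor groups Ythdf1 was the highest of the 10 genes and Fto the second, with Alkbh5 in place 4 in TI and place 3 in TIM. Mettl14 was the lowest in every group. Alkbh5 led in both gland groups, with Ythdf1 second.

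**Figure D1:**
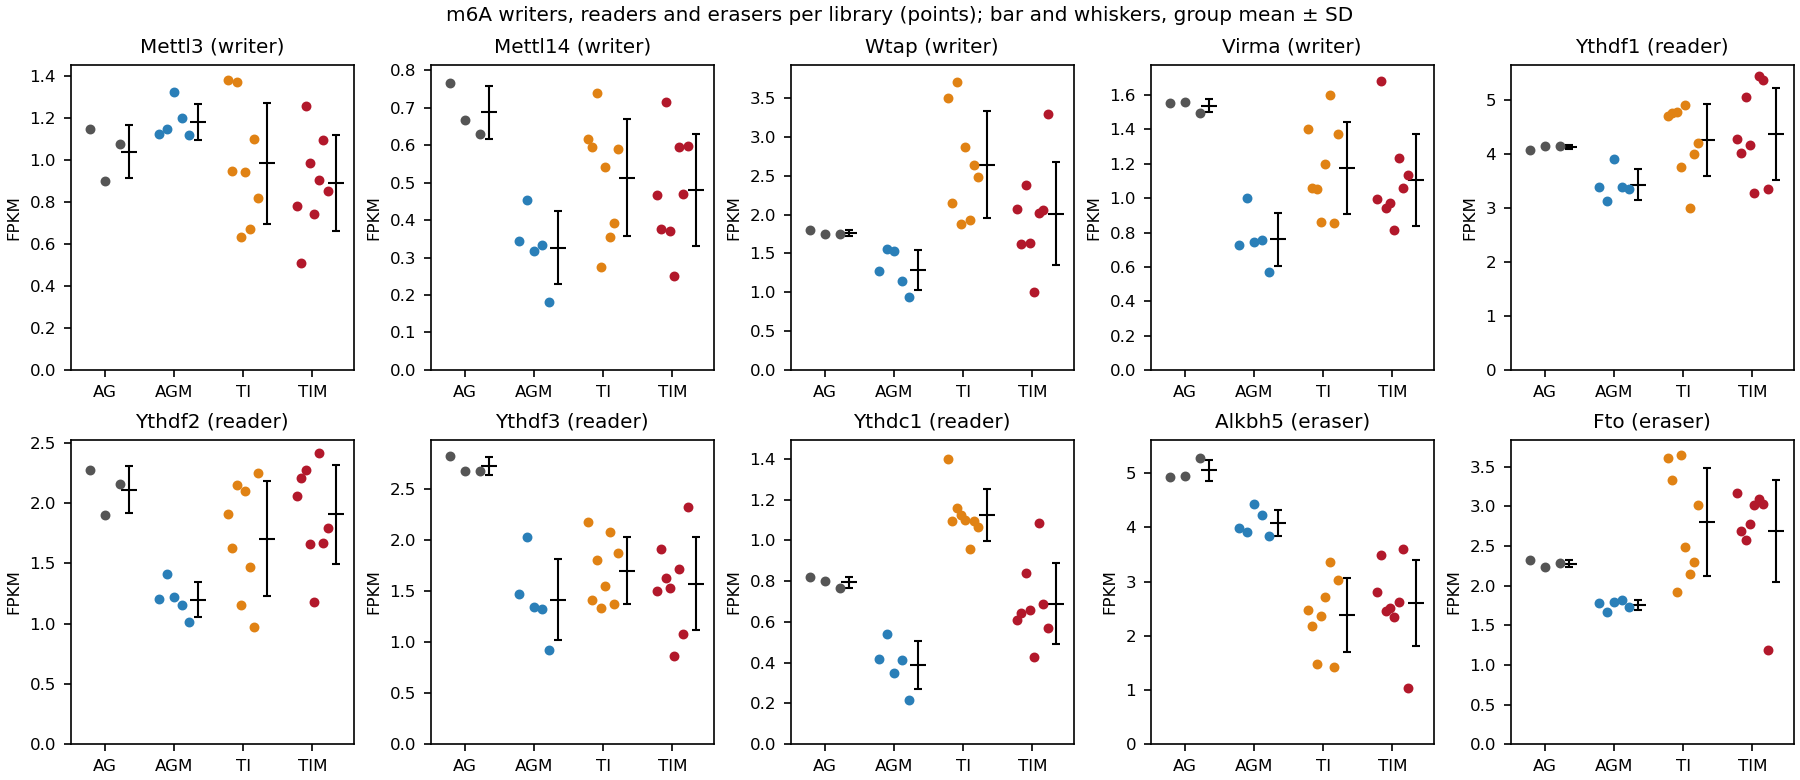
FPKM (vertical axis, linear from 0) of each writer, reader and eraser gene in every library of AG (n = 3), AGM (n = 5), TI (n = 8) and TIM (n = 8); points are libraries, and the bar with whiskers beside them is the group mean ± SD. Alkbh5 lies at 1.43 to 3.36 in TI and 1.03 to 3.60 in TIM, below all 8 glands, while Ythdc1 is highest in TI and lowest in AGM.

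Mettl3 (mm39 chr14:52531551-52542608, minus strand), the catalytic subunit, passed the threshold in none of the comparisons on the deposited scale. Its level was 1.15, 0.900 and 1.08 FPKM in the AG libraries and 1.12 to 1.33 in the AGM libraries. In TI it ran from 0.635 through a median of 0.946 to 1.38, and in TIM from 0.510 through 0.879 to 1.26. All 4 groups overlapped, with the widest spread in the tumors, where the coefficient of variation was 29.1% in TI and 25.7% in TIM against 12.2% in AG. The log2 difference from AG was -0.05 in TI (95% confidence interval -0.29 to 0.19, limma FDR 0.76), -0.12 in TIM (-0.36 to 0.12, FDR 0.42) and 0.10 in AGM (-0.16 to 0.36, FDR 0.60). TIM against AGM gave -0.22 (FDR 0.057), with 7 of the 8 TIM libraries below every AGM library. That difference passed the threshold when TI replicate 1, 3, 4 or 6 or TIM replicate 3 or 7 was dropped (FDR 0.027 to 0.050), replicates being numbered by column order, and with median-of-ratios scaling (FDR 0.030). The sign of the difference of AGM from AG turned to -0.24 (FDR 0.44) when FPKM were recomputed over the reads outside the 126 high genes. On that recomputed scale TIM against AGM was -0.10 (limma FDR 0.65). In reads scaled to a common total without these genes, 2 of the 8 TIM libraries were below every AGM library.

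Mettl14 (chr3:123154348-123179757, minus strand), the RNA-binding partner of METTL3, was low throughout, with 112 to 610 recovered reads per library. It stood at 0.766, 0.667 and 0.629 FPKM in AG and at 0.344, 0.454, 0.317, 0.333 and 0.180 in AGM. In TI the range was 0.275 to 0.739 with a median of 0.566, and in TIM 0.252 to 0.716 with a median of 0.468. Each AGM library lay below each AG library, whereas both tumor groups overlapped the glands. In RPM (reads scaled to a common total, leaving out the 126 high genes), the mean was 10.9 ± 4.18 (SD, n = 5) in AGM and 31.1 ± 3.75 (n = 3) in AG, a ratio of 0.352. The exact permutation p was 0.0179, the smallest that 56 assignments allow, and 0.0707 after adjustment over the 5 comparisons. The same test gave adjusted p = 0.0707 for TIM against AG (19.9 ± 7.04, n = 8; ratio 0.641) and for TIM against AGM (ratio 1.82), 0.121 for TI against AG (22.9 ± 6.92, n = 8) and 0.396 for TIM against TI, so that no Mettl14 difference passed 0.05 in the exact permutation test. Leaving out the 126 high genes shifted all genes. With FPKM recomputed in that way, the median log2 difference of all tested genes was -0.41 in AGM against AG and 0.31 in TIM against AGM. The log2 RPM ratios of Mettl14 were -1.505 and 0.863. In deposited FPKM its ratios were 0.474 and 1.475, with adjusted p = 0.0893 and 0.119 in the exact permutation test. The AGM and TIM differences from AG reached adjusted p = 0.0446 without TIM replicate 3, and those of AGM from AG and TIM from AGM without TIM replicate 5, in the exact permutation test. AGM against AG holds no TIM library, so its unadjusted p stayed at 0.0179 and only the adjustment over the 5 comparisons moved. Without the filter on low values limma placed the AGM difference at -0.35 on the log2(FPKM + 1) scale (FDR 0.015). With limma-voom on genes with 10 reads in 3 libraries it was -1.65 on the log2 scale of reads (FDR 0.0027), and TIM exceeded AGM by 0.89 (FDR 0.026). The medians of all genes in that fit were -0.47 and 0.25.

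Wtap (chr17:13184295-13213056, minus strand), the localising subunit, was 1.81, 1.75 and 1.75 FPKM in AG. In AGM it was 1.27, 1.55, 1.53, 1.15 and 0.933, in TI 1.87 to 3.70 with a median of 2.56, and in TIM 0.997 to 3.29 with a median of 2.04. All 8 TI libraries were above all AG libraries, all 5 AGM libraries were below them, and TIM libraries lay on both sides. The TI difference from AG was 0.38 (95% confidence interval 0.02 to 0.73), which missed the threshold (limma FDR 0.072), as did AGM against AG (-0.28, FDR 0.27), TIM against AG (0.09, FDR 0.69) and TIM against TI (-0.28, FDR 0.11). Wtap was higher in TIM than in AGM, by 0.37 ± 0.15 (SE) on the log2 scale (FDR 0.028), with 7 of 8 TIM libraries above every AGM library. That call was lost with median-of-ratios scaling (FDR 0.054) and without AGM replicate 4 (FDR 0.059), AGM replicate 5 (FDR 0.084) or TIM replicate 8 (FDR 0.054). Without TIM replicate 8, Wtap passed in TIM against TI (FDR 0.028), and without TI replicate 4 or 6 or TIM replicate 5 or 8 it passed in TI against AG (FDR 0.041 to 0.046).

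Virma (chr4:11485948-11550686, plus strand), which recruits the core pair to the end of the message, was the writer called in AGM against AG. Its level was 1.55, 1.56 and 1.49 FPKM in AG and 0.729, 1.0, 0.745, 0.757 and 0.572 in AGM, so the gland groups did not overlap. In TI it was 0.857 to 1.60 with a median of 1.13, and in TIM 0.816 to 1.68 with a median of 1.03, 7 libraries of each tumor group lying below all AG libraries. Virma fell in AGM against AG by 0.53 ± 0.12 (SE) on the log2 scale (limma FDR 0.0020), a ratio of means of 0.495. It fell in TIM against AG by 0.28 ± 0.11 (FDR 0.040), while TI against AG gave -0.23 (FDR 0.086) and TIM against TI -0.05 (FDR 0.73). It was higher in TIM than in AGM by 0.25 ± 0.09 (FDR 0.022), a call lost without AGM replicate 5 (FDR 0.070). The TIM call against AG was lost without AG replicate 1, 2 or 3 (FDR 0.084 to 0.11), without TIM replicate 1, 3, 4, 5 or 7 (FDR 0.052 to 0.061) and with median-of-ratios scaling (FDR 0.075), while TI against AG passed without TI replicate 6 (FDR 0.038).

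Ythdf1 (chr2:180546165-180562815, minus strand), a cytoplasmic reader linked to translation, was the most uniform reader in the control glands, at 4.08, 4.14 and 4.14 FPKM. AGM libraries read 3.38, 3.12, 3.90, 3.38 and 3.36, TI libraries 2.99 to 4.90 with a median of 4.45, and TIM libraries 3.28 to 5.44 with a median of 4.22. AGM lay wholly below AG, and the tumors lay on both sides of it. No difference from AG passed the threshold, with 0.03 in TI (95% confidence interval -0.24 to 0.30, limma FDR 0.92), 0.05 in TIM (-0.22 to 0.32, FDR 0.77) and -0.21 in AGM (-0.51 to 0.08, FDR 0.28). TIM exceeded AGM by 0.26 ± 0.11 (SE; FDR 0.040), a call lost with median-of-ratios scaling (FDR 0.098) and without AGM replicate 1, 2, 4 or 5 or TIM replicate 1, 3, 6 or 7 (FDR 0.051 to 0.089). MYCN and its partner MAX bind the E-box letters CACGTG, and windows from 250 bases before to 50 after the annotated start were at hand for 7 of the 10 genes (9 windows, RefSeq, GRCm38.p6). Searched on both strands, since the letters are their own reverse complement, the motif stood in the window of Ythdf1 and in no window of Mettl3, Wtap, Ythdf2, Ythdc1, Alkbh5 or Fto, against 7.15% of all 32851 windows. The match began 168 bases before the start. It is shown within a stretch of 30 bases, chr2:180921087-180921116 on the minus strand, because it is the sole match among these genes, with the motif in capitals.
Ythdf1: ccccaggagcccCACGTGactctcgagtcg

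Ythdf2 (chr4:131911065-131939614, minus strand), the reader that leads bound mRNA to deadenylation, was 2.27, 1.90 and 2.16 FPKM in AG and 1.20, 1.41, 1.22, 1.15 and 1.01 in AGM. TI ran from 0.969 to 2.25 with a median of 1.76, and TIM from 1.18 to 2.41 with a median of 1.92. The gland groups did not overlap, and both tumor groups covered the span from the AGM to the AG level. Ythdf2 fell in AGM against AG by 0.50 ± 0.15 (SE) on the log2 scale (limma FDR 0.018), and was higher in TIM than in AGM by 0.39 ± 0.12 (FDR 0.0070). Without AG replicate 1 or 3 the AGM call was lost (FDR 0.077 and 0.062). TI against AG gave -0.22 (FDR 0.20), TIM against AG -0.11 (FDR 0.55) and TIM against TI 0.11 (FDR 0.47).

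Ythdf3 (chr3:16237297-16271201, plus strand), which acts together with YTHDF1 and YTHDF2, passed the threshold downwards in all 3 groups against AG. It was the only 1 of the 9 tested genes to do so in the limma fit of the deposited values. Of all tested genes, 27.7% were lower in TI, 28.5% in TIM and 14% in AGM, each against AG. The share of all tested genes lower in all 3 was not computed, so whether 1 of 9 is unusual cannot be told. The AG libraries read 2.83, 2.68 and 2.67 FPKM and the AGM libraries 1.47, 2.02, 1.34, 1.33 and 0.920. TI libraries read 1.33 to 2.18 with a median of 1.68, and TIM libraries 0.867 to 2.32 with a median of 1.58. All 21 other libraries lay below the 3 AG libraries. The fall was 0.47 ± 0.15 (SE) on the log2 scale in TI (limma FDR 0.0091), 0.56 ± 0.15 in TIM (FDR 0.0029) and 0.64 ± 0.16 in AGM (FDR 0.0042), 3 comparisons that share the same AG libraries. Ratios of means were 0.624, 0.576 and 0.520. The difference of TIM was 0.08 from AGM (95% confidence interval -0.17 to 0.34, FDR 0.56) and -0.08 from TI (-0.31 to 0.14, FDR 0.63). All 3 calls against AG held in every fit that left out a library, with FDR of at most 0.040 in TI, 0.017 in TIM and 0.023 in AGM.

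Ythdc1 (chr5:86951957-86985080, plus strand), the nuclear reader that acts on splicing and export, was highest in TI and lowest in AGM by mean level. Its level was 0.819, 0.802 and 0.766 FPKM in AG and 0.418, 0.539, 0.349, 0.414 and 0.215 in AGM. TI libraries lay between 0.958 and 1.40 with a median of 1.1, and TIM libraries between 0.427 and 1.09 with a median of 0.652. All TI libraries exceeded all AG libraries, and all AGM libraries were below them. TIM overlapped AG. Ythdc1 was lower in TIM than in TI by 0.34 ± 0.07 (SE) on the log2 scale (limma FDR 0.0015, ratio of means 0.613), the only call among the 9 tested genes between the tumor groups. It was also lower in AGM than in AG by 0.38 ± 0.10 (FDR 0.0065) and higher in TIM than in AGM by 0.28 ± 0.08 (FDR 0.0031). The rise in TI against AG, 0.24 ± 0.09 (FDR 0.031), was lost with a pseudocount of 0.1 (FDR 0.073), with recomputed FPKM (FDR 0.11), and when AG replicate 1, 2 or 3 or TI replicate 1 was dropped (FDR 0.069, 0.078, 0.096 and 0.053). TIM against AG gave -0.10 (FDR 0.40).

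Alkbh5 (chr11:60427207-60449346, plus strand), a nuclear demethylase, showed the largest change of the 9 tested genes in both comparisons of tumors with AG. The AG libraries read 4.94, 4.94 and 5.28 FPKM and the AGM libraries 3.99, 3.91, 4.42, 4.22 and 3.84. TI libraries lay between 1.43 and 3.36 with a median of 2.42, and TIM libraries between 1.03 and 3.60 with a median of 2.56. On this deposited scale all 16 tumor libraries were below all 8 glands, and AGM was below AG without overlap. In RPM the tumors overlapped AGM, with 51.7 to 129 in TI, 37.7 to 118 in TIM and 81.3 to 128 in AGM. All of these lay below AG, at 180 to 189. Alkbh5 fell in TI against AG by 0.87 ± 0.19 (SE) on the log2 scale (limma FDR 0.00052, ratio of means 0.471) and in TIM against AG by 0.78 ± 0.19 (FDR 0.0014, ratio 0.516). It fell in TIM against AGM by 0.53 ± 0.16 (FDR 0.0061), a call lost with recomputed FPKM (-0.37, FDR 0.15). AGM against AG gave -0.25 (FDR 0.37), and it passed the threshold with recomputed FPKM (FDR 0.038), limma-voom (FDR 0.040), the spread of AGM and AG alone (FDR 0.0069) and sample weights (FDR 0.0021). TIM against TI gave 0.08 (95% confidence interval -0.21 to 0.37, FDR 0.72). The fall in TI kept its call under every alternative run and in every leave-one-out fit. Cortex markers fell as well between glands and tumors, from sums of 645 FPKM or more to 10.1 or less. Between the gland groups they ran the other way, with sums of 645 to 667 in AG and 4293 to 5373 in AGM. The AGM sums held Cyp21a1 (mean 134 FPKM in AG, 1514 in AGM) and Hsd3b1 (234 and 1344), both among the 126 genes above 1000 FPKM. The rise was uneven, as Star averaged 182 in AG and 371 in AGM, and Cyp11b2 0.0482 and 559. All 3 adipocyte markers were found, and their sums were 28.8 to 139 in AG and 106 to 256 in AGM, while TI tumors had 0.167 to 2.27 and TIM tumors 0.0377 to 32.2, which overlapped AG. The 4 endothelial markers summed to 9.23 to 14.7 over both gland groups. Their tumor medians were 3.52 in TI (range 1.90 to 17.7, overlapping the glands) and 3.51 in TIM (0.755 to 6.48). Proliferation markers, 4 in all, were higher in the tumors by median, with sums of at most 1.29 in the glands. The medians were 19.4 in TI (range 4.35 to 36.7) and 10.9 in TIM (0.335 to 23.6, overlapping the glands). The part of these markers in the result was not tested.

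Fto (chr8:92039953-92395070, plus strand), the second demethylase, was 2.32, 2.23 and 2.28 FPKM in AG and 1.79, 1.66, 1.79, 1.82 and 1.73 in AGM. TI libraries read 1.92 to 3.65 with a median of 2.75. TIM libraries read 1.19 to 3.17 with a median of 2.89, and 7 of these lay between 2.58 and 3.17. AGM lay below AG without overlap, and 7 of the 8 TIM libraries lay above both gland groups. The differences from AG were 0.20 in TI (95% confidence interval -0.14 to 0.53, limma FDR 0.33), 0.15 in TIM (-0.19 to 0.48, FDR 0.47) and -0.25 in AGM (-0.61 to 0.11, FDR 0.30). Fto was higher in TIM than in AGM by 0.40 ± 0.14 (SE; FDR 0.014), whereas TIM against TI gave -0.05 (FDR 0.82).

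**Figure D2:**
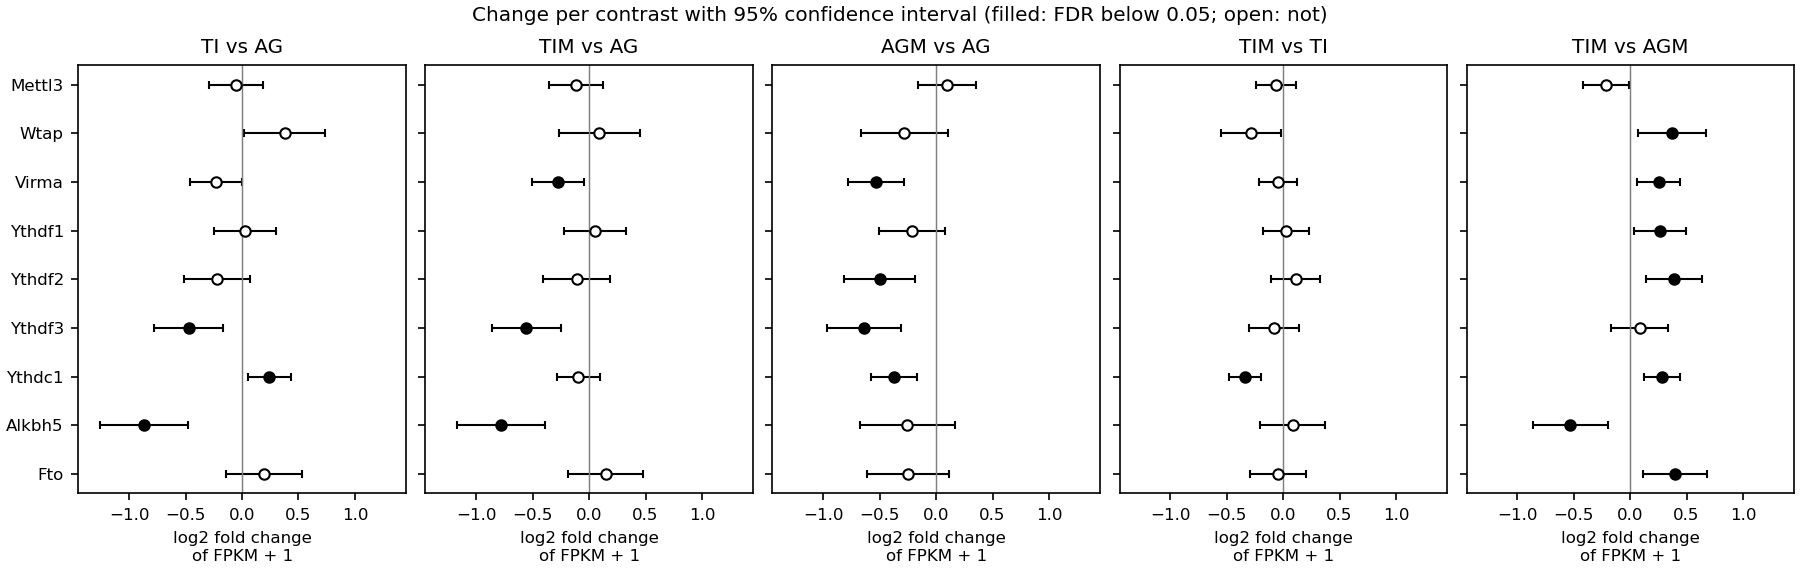
Log2 fold change of FPKM + 1 (horizontal axis) with its 95% confidence interval from limma for the 9 tested genes in 5 comparisons, the first-named group against the second; filled points passed an FDR of 0.05 and open points did not. Alkbh5 lies at -0.87 and -0.78 in the comparisons of TI and TIM with AG, and the single filled point between the tumor groups is Ythdc1 at -0.34.

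Counted by comparison, 1 of the 9 tested genes was higher and 2 were lower in TI than in AG, where 24.6% of all tested genes were higher and 27.7% lower. In TIM against AG, 0 were higher and 3 lower, against 22.5% higher and 28.5% lower of all genes. In AGM against AG, 0 were higher and 4 lower (Virma, Ythdf2, Ythdf3 and Ythdc1), against 14.6% higher and 14% lower. When AGM and AG alone set the spread, 8 of the 9 were lower, against 32.9% of all tested genes. The median log2 difference of the 9 genes was -0.05, -0.11 and -0.28 in these 3 comparisons, with medians of all tested genes between -0.005 and -0.002. In TIM against TI, 0 were higher and 1 lower, against 10% and 12.9% of all genes. In TIM against AGM, 6 were higher and 1 lower (Alkbh5), against 31.9% and 33.4%, and the median was 0.26 beside 0.03 for all genes. In TI and TIM against AG fewer were higher than the background share, and 2 and 3 of the 9 were lower. In AGM against AG the share lower exceeded the background and in TIM against AGM the share higher did, but these shares describe a list chosen by name and were given no test.

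The interaction set the difference of TIM from TI against that of AGM from AG, the first of each pair being labelled with MYCN. The tumor pair differed in IGF2BP1 genotype as well, since 7 of the 8 TI samples were IGF2BP1 +/+ and TIM carried IMP1/MYCN at the same locus. It also differed in run, as 6 of the 8 TI samples came from run 1 and the TIM samples from runs 2 and 3. The gland pair differed in CRE and in run. None of these can be told apart from MYCN. Virma gave 0.48 ± 0.15 (SE; limma FDR 0.034) and Ythdf2 0.61 ± 0.19 (FDR 0.036), as both fell in AGM against AG but had TIM against TI differences of -0.05 and 0.11. Thus 2 of 9 genes passed upwards and 0 downwards, where 3.85% of all tested genes passed upwards and 6.15% downwards. Ythdf3 gave 0.56 (FDR 0.068). Both calls were lost with median-of-ratios scaling (FDR 0.054 for Virma and 0.057 for Ythdf2), without AG replicate 1, 2 or 3 and without AGM replicate 1, 4 or 5 (FDR 0.053 to 0.11). Virma also lost its call without TI replicate 7 (FDR 0.051) and Ythdf2 without TIM replicate 1, 2, 3 or 6 (FDR 0.052 to 0.054), while Ythdf3 passed without AGM replicate 2 or TIM replicate 5 or 7 (FDR 0.018 to 0.047).

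The scale mattered for every comparison with AGM. Recomputing FPKM over the reads outside the 126 high genes moved the median log2 difference of all tested genes to -0.41 in AGM against AG, -0.15 in TIM against AG, 0.31 in TIM against AGM, -0.12 in TIM against TI and 0.29 in the interaction. On that scale, on which values were larger and the pseudocount weighed less, 8 of the 9 genes passed the threshold downwards in AGM against AG. Relative to the median of all genes, Ythdf3 was at -0.90, Virma at -0.85, Ythdf2 at -0.73 and Ythdc1 at -0.71. Wtap at -0.42, Fto at -0.36, Alkbh5 at -0.34 and Ythdf1 at -0.29 were nearer to it, and Mettl3 was above it at 0.17. The 4 genes called on the deposited scale were thus also the 4 farthest below the median of all genes. Recomputing multiplied all values of a library by the same factor, so this order largely carried over from the deposited scale and is no separate test. Among all genes, calls in AGM against AG were 1488 higher and 1420 lower on the deposited scale, 974 and 3630 with recomputed FPKM, and 1826 and 985 with median-of-ratios scaling. For TIM against AGM the split moved from 3241 higher and 3398 lower to 4283 and 2656 with recomputed FPKM, and for TIM against TI from 1017 and 1315 to 816 and 1879. The interaction moved from 392 and 626 to 654 and 404 with recomputed FPKM and to 289 and 728 with median-of-ratios scaling.

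Gene length moved with the AGM differences as well. Of 3 equal length classes of the tested genes, the longest length class (5290 bases or more) had 22.2% lower and 6.19% higher in AGM against AG, with a median log2 difference of -0.15, and the shortest length class 6.37% lower and 23.5% higher, with a median of 0.19. Wtap, Virma, Ythdf3, Ythdc1, Alkbh5 and Fto belonged to the longest length class, as Mettl14 did by its length of 7419 bases, and Mettl3, Ythdf1 and Ythdf2 to the middle length class, where 13.3% were lower and the median was -0.01. The part of length in the AGM results was not tested. In TI against AG the longest length class had a median of 0.04, with 27.0% lower and 27.8% higher. In TIM against TI it had a median of -0.06, with 16.7% lower and 6.22% higher, and the shortest 9.38% lower and 13.8% higher. Ythdc1, the member called there, was in the longest class. In TIM against AGM the longest class had a median of 0.16, with 38.7% higher and 24.4% lower. The shortest had 23.6% higher and 41.7% lower. Of the members higher in TIM than in AGM, Wtap, Virma, Ythdc1 and Fto were in the longest class and Ythdf1 and Ythdf2 in the middle class. Alkbh5, lower in that comparison, was in the longest class too.

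Proportions of these genes within a library do not depend on how libraries are scaled to one another, and they were formed after the values had been seen, so they are given without a test. They still rest on batch-corrected values and pair genes of unlike length. Mettl3 has 5076 bases and Mettl14 7419, Ythdf1 3316 and Ythdf3 5363, and Alkbh5 5987 and Fto 13031. The part of batch correction or length in these proportions was not tested. The ratio of Fto to Alkbh5 was 0.451 ± 0.019 (SD, n = 3) in AG and 0.432 ± 0.018 (n = 5) in AGM. It was 1.25 ± 0.355 (n = 8) in TI, with a range of 0.639 to 1.61, and 1.07 ± 0.175 (n = 8) in TIM, with a range of 0.772 to 1.29. All 16 tumor libraries lay above all 8 gland libraries, and AG and AGM overlapped. The ratio of Mettl3 to Mettl14, the partners of the catalytic core, was 1.52 ± 0.184 in AG, 1.98 ± 0.453 in TI, 1.96 ± 0.605 in TIM and 3.96 ± 1.39 in AGM, where it reached from 2.53 to 6.21. All 5 AGM libraries exceeded all AG libraries, and some tumor libraries overlapped AGM. Among the cytoplasmic readers, Ythdf1 made up 46.0% ± 1.56 of the summed FPKM of Ythdf1, Ythdf2 and Ythdf3 in AG, 57.0% ± 5.98 in AGM, 55.8% ± 5.81 in TI and 55.8% ± 6.60 in TIM. The share of Ythdf3 was 30.4% ± 0.572 in AG, 23.2% ± 5.01 in AGM, 22.4% ± 4.41 in TI and 20.0% ± 5.38 in TIM.

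**Figure D3:**
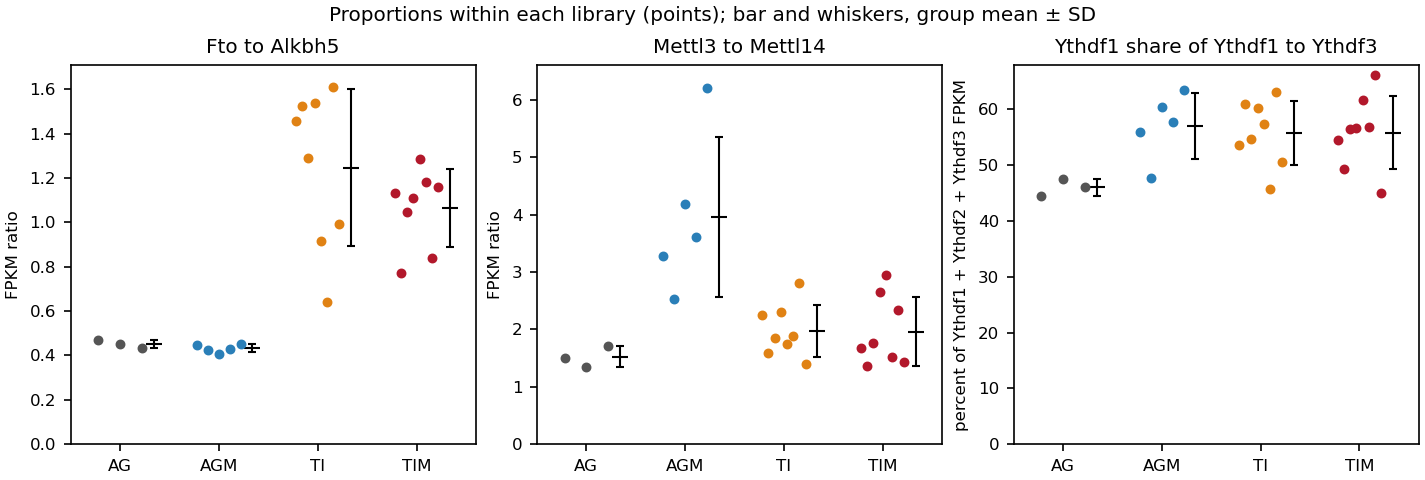
Proportions within each library in AG (n = 3), AGM (n = 5), TI (n = 8) and TIM (n = 8): the FPKM ratio of Fto to Alkbh5, the FPKM ratio of Mettl3 to Mettl14, and the percent that Ythdf1 holds of the summed FPKM of the cytoplasmic readers; points are libraries and the bar with whiskers is the mean ± SD. The Fto to Alkbh5 ratio is at most 0.469 in the glands and at least 0.639 in the tumors, and the Mettl3 to Mettl14 ratio is highest in AGM.

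Among themselves the 10 genes did not move as a single block. With group means removed, Pearson's r of log2(FPKM + 1) over the 24 libraries ran from -0.49 to 0.80 over the 45 pairs, with a median of 0.36 and 32 pairs above 0. The highest values were those of Mettl14 with Wtap (0.80), Mettl14 with Ythdf2 (0.76) and Virma with Ythdf3 (0.74). Alkbh5 and Fto went together (0.62) and went against the writer Wtap, with r of -0.45 for Alkbh5 and -0.49 for Fto. In the 16 tumors alone the same pairs gave 0.80, 0.76, 0.69, 0.62, -0.49 and -0.51. TIM replicate 8 was the extreme of its group for 3 of these genes. Its Alkbh5 was 1.03 FPKM (next lowest 2.35), its Fto 1.19 (next lowest 2.58) and its Wtap 3.29 (next highest 2.38). The values of r without that library were not computed. These values are a description: the libraries share scaling, batch correction and runs, and the pairs share genes. By the same measure without removing group means, the tested genes most like Alkbh5 over the 24 libraries were Fam120a (r 0.93), Scd2 (0.93) and Gna12 (0.93), those most like Fto were Ubqln2 (0.91), Bicd2 (0.90) and Bcr (0.90), those most like Mettl14 were Cse1l (0.91), Dkc1 (0.90) and Mtrex (0.89), and those most like Mettl3 were Slc15a4 (0.83), Pycrl (0.77) and Med20 (0.77).

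**Figure D4:**
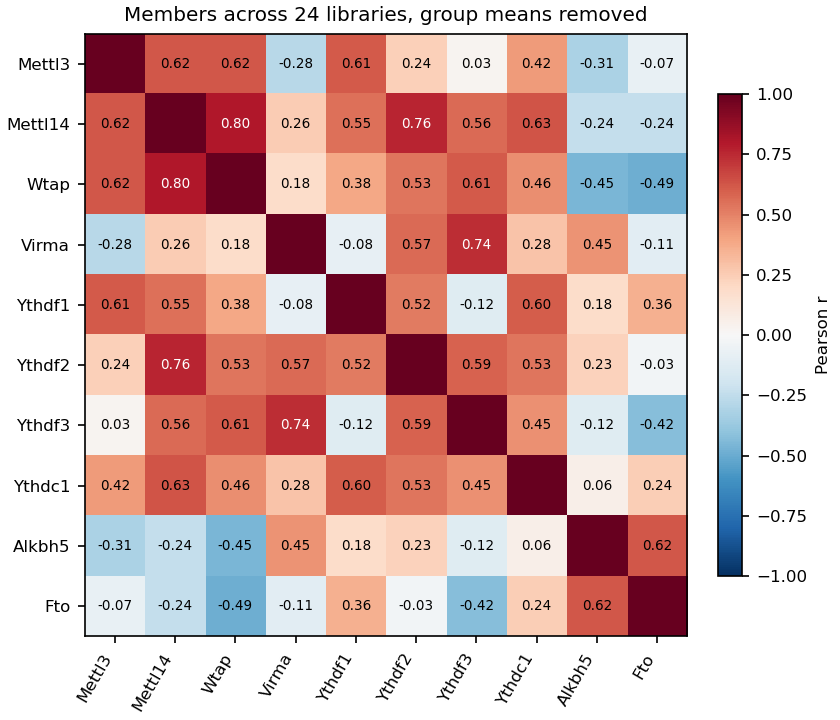
Pearson's r of log2(FPKM + 1) between the 10 writer, reader and eraser genes over 24 libraries after group means were removed, on a colour scale from -1 (blue) to 1 (red). Mettl14 and Wtap reach 0.80, and Wtap and Fto -0.49.

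A wider list of 32 genes of the pathway was examined beside these 10, of which 24 passed the filter. Below it were the writer subunit Rbm15, the methyltransferase genes Mettl16, Zcchc4 and Mettl4, the reader gene Ythdc2, and Igf2bp1, Igf2bp2 and Igf2bp3. Igf2bp2 averaged 0.128 FPKM in AG, 0.199 in AGM, 0.0157 in TI and 0.00529 in TIM, and Igf2bp3 was at most 0.0795 FPKM in any library. In TI against AG, 7 of the 24 were higher and 1 lower, where 24.6% of all tested genes were higher and 27.7% lower, and the median log2 difference was 0.25. Higher were Rbmx (0.94, limma FDR 0.025), a nuclear protein described as binding m6A-dependent structures, Fxr2 (0.90, FDR 5.3e-06), a relative of the fragile X protein, and Srsf3 (0.82, FDR 0.029), a splicing and export factor that works with YTHDC1. Mat2b, the regulatory subunit of the enzyme that makes the methyl donor, was lower (-0.56, FDR 0.0012). The calls of Rbmx and Srsf3 were lost without AG replicate 1, 2 or 3 (FDR 0.050 to 0.079).

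In TIM against AG, 4 of the 24 were higher and 5 lower, where 22.5% of all tested genes were higher and 28.5% lower. Mat2a, the catalytic subunit of the same enzyme, rose by 0.97 ± 0.28 (SE) on the log2 scale (limma FDR 0.0056), from 8.32 to 17.8 FPKM, Snd1 rose by 0.88 (FDR 0.00041) and Fxr2 by 0.60 (FDR 0.00065). Srsf10, a splicing factor, fell by 0.59 (FDR 0.044), Cnot1, the scaffold of the deadenylase recruited by YTHDF2, fell by 0.59 (FDR 0.0021) and Upf1, a helicase of mRNA decay, fell by 0.56 (FDR 0.0044). The Srsf10 call was lost with median-of-ratios scaling (FDR 0.074) and without any of 9 libraries (FDR 0.050 to 0.13). Snd1, a staphylococcal nuclease domain protein, was also higher in AGM than in AG (0.72, FDR 0.010, lost with recomputed FPKM) and in TIM than in TI (0.79, FDR 0.00046).

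In AGM against AG, 2 of the 24 were higher and 7 lower, with a median of -0.30, where 14.6% of all tested genes were higher and 14% lower. Hnrnpa2b1, a nuclear RNA-binding protein described as an m6A reader, fell by 1.48 ± 0.42 (SE; limma FDR 0.011), from 23.0 ± 0.583 FPKM (SD, n = 3) in AG to 7.83 ± 2.32 (n = 5) in AGM. Srsf10 fell by 0.82 (FDR 0.020, lost without AG replicate 1, 2 or 3 or AGM replicate 5, FDR 0.052 to 0.078) and Fmr1, the fragile X RNA-binding protein, by 0.72 (FDR 0.00014). Rida, whose protein bridges YTHDF2 and an endoribonuclease, was higher by 1.07 (FDR 0.0020), with AGM libraries spread from 1.16 to 4.98 FPKM against 0.458 to 0.590 in AG. Between the tumors, 2 of the 24 were higher and 9 lower in TIM than in TI, with a median of -0.31, where 10% of all tested genes were higher and 12.9% lower. Hnrnpa2b1 fell by 0.93 (FDR 0.023), Srsf3 by 0.75 (FDR 0.022) and Nxf1, the mRNA export receptor, by 0.45 (FDR 0.00063), while Mettl5, an rRNA methyltransferase, was higher by 0.20 (FDR 0.023). The calls of Hnrnpa2b1 and Srsf3 were lost without TI replicate 3 (FDR 0.051 for both), that of Hnrnpa2b1 also without TIM replicate 2 (FDR 0.051), and that of Mettl5 without TI replicate 7 (FDR 0.051) and with recomputed FPKM (FDR 0.13).

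In TIM against AGM, 11 of the 24 were higher and 2 lower, with a median of 0.27, where 31.9% of all tested genes were higher and 33.4% lower. Hnrnpa2b1 was higher by 0.99 (limma FDR 0.011), the writer subunit Rbm15b by 0.98 (FDR 7.0e-07), from 1.18 ± 0.067 (SD, n = 5) to 3.38 ± 0.796 FPKM (n = 8), and Rbmx by 0.96 (FDR 0.0058). Rida was lower by 1.30 on the log2 scale (FDR 3.2e-06) and Mat2b by 0.33 (FDR 0.014, lost with recomputed FPKM). None of the 24 passed the threshold in the interaction (0 higher and 0 lower by limma), and 4 had an unadjusted p under 0.05, as did 23.4% of all tested genes.

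**Figure D5:**
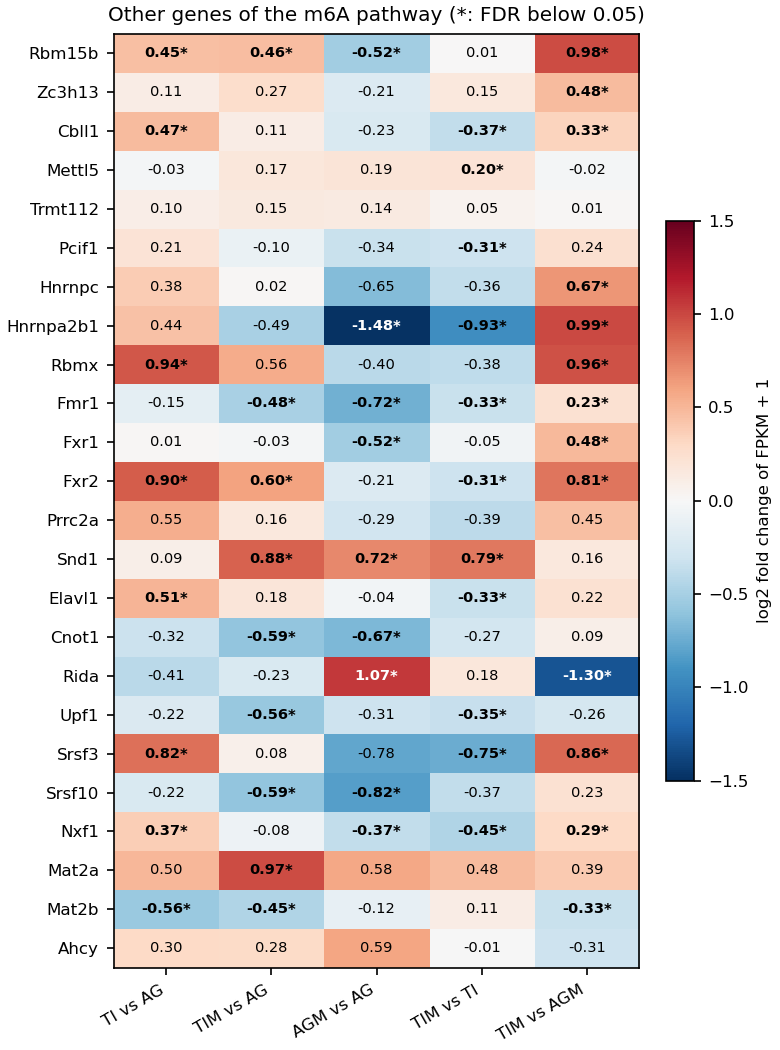
Log2 fold change of FPKM + 1 (colour and printed value, cut at -1.5 and 1.5) of the 24 tested genes of the wider m6A list in 5 comparisons, the first-named group against the second; an asterisk marks an FDR below 0.05 by limma. Hnrnpa2b1 is lowest in AGM against AG, at -1.48, and Rbm15b reaches 0.98 in TIM against AGM.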

How the data were processed

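The deposited table held FPKM of 21833 protein-coding genes in 24 libraries, which the authors made with cutadapt 2.8, HISAT2 2.1.0 (mm39), SAMtools 1.10 and featureCounts 2.0.0, followed by ComBat-seq correction and edgeR 3.40 TMM scaling. Its columns of the authors' fold changes and p-values were not used. Column names gave the group but not the sample, so replicate numbers follow column order. All values were whole multiples of 1 read within 0.001 reads. Recovered reads, which are batch-corrected, were 12334076 to 23683176 per library outside 126 genes above 1000 FPKM. limma 3.58.1 (R 4.3.3; lmFit, eBayes with trend) was fitted to log2(FPKM + 1) of 10171 genes over all 24 libraries in 4 groups, without covariates, and tested on simulated data. Mettl14 was compared by exact two-sided permutation of RPM (reads scaled to a common total). Alternatives were the pseudocount, filter, scaling, limma-voom on recovered reads, 2-group spread, sample weights and leaving out each library. Members and lists were chosen with earlier results of these data known. All 10 members were named in every comparison, and of the wider list the 3 largest calls per direction. Gene coordinates are from GENCODE M39.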

Additional observations from a re-analysis of the deposited data

Results flagged for a closer look

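In TI, the highest Ythdc1 library stood apart from the other 7, at 1.40 FPKM against 1.16 for the next, a gap of 0.543 of the group's range. In TIM, the lowest Fto library, at 1.19 FPKM, stood apart from the next, at 2.58, by 0.699 of the range. Of 30 groups examined in this way 2 stood out, and chance marks about 1 in 20. By the interaction test, the difference of TIM from TI exceeded that of AGM from AG for Virma and Ythdf2. The excess was 0.48 on the log2 scale for Virma (limma FDR 0.034) and 0.61 for Ythdf2 (FDR 0.036). In that test MYCN cannot be told apart from IGF2BP1 genotype and run in the tumors or from CRE and run in the glands.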

How the results depend on the processing

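No paired analysis was possible because the columns carry no replicate number that the labels share across groups. Requiring 1 FPKM in every library left Ythdf1, Alkbh5 and Fto to be tested. The number of members called was then 1 in TI against AG (47.0% of all tested genes were called), 1 in TIM against AG (44.3%) and 0 in AGM against AG (16.4%). It was 0 in TIM against TI (21.3%), 2 in TIM against AGM (56.1%) and 0 in the interaction (0.404%). Sample weights gave 6 in TI against AG (73.9% of all tested genes were called), 9 in AGM against AG (72.5%, with Mettl3 higher and the other 8 lower), 2 in TIM against TI (30.0%) and 4 in the interaction (34.8%). In AGM against AG the count of 4 became 8 with recomputed FPKM, with limma-voom on recovered reads and with only AGM and AG setting the spread, where 45.3%, 41.6% and 62.1% of all tested genes were called, and 9 with limma-voom on genes with 10 reads in 3 libraries (33.6%). The interaction count of 2 became 1 with a pseudocount of 0.1 (5.899% of all tested genes called) and 0 with median-of-ratios scaling (9.999%). Apart from the smaller number of members under the strict filter, the cause was not tested. Leaving out a library moved the counts from 2 to 5 in TI against AG (5 without TI replicate 6), from 2 to 3 in TIM against AG, from 3 to 4 in AGM against AG, from 1 to 2 in TIM against TI (2 without TIM replicate 8), from 4 to 8 in TIM against AGM (4 without AGM replicate 5) and from 0 to 3 in the interaction. Of all 10171 tested genes, these fits called 4468 to 5583 in TI against AG, 4293 to 5449 in TIM against AG and 1896 to 3326 in AGM against AG. They called 1831 to 2788 in TIM against TI and 6076 to 6930 in TIM against AGM. The interaction count was 0 without AG replicate 1, 2 or 3 or AGM replicate 1, 4 or 5 (691 to 905 of all tested genes called). It was 1 without TI replicate 7 or TIM replicate 1, 2, 3 or 6 (909 to 973), and 3 without AGM replicate 2 or TIM replicate 5 or 7 (996 to 1532).

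The signs that turned under an alternative were of differences that did not pass the threshold there. With recomputed FPKM, limma-voom, and limma-voom on genes with 10 reads in that order, Wtap in TIM against AG was -0.021, -0.042 and -0.043, Ythdf1 in TIM against AG -0.084, -0.090 and -0.089, Mettl3 in AGM against AG -0.24, -0.30 and -0.30, Ythdf1 in TIM against TI -0.10, -0.11 and -0.11, Alkbh5 in TIM against TI -0.022, -0.024 and -0.024, and in the interaction Mettl3 0.018, 0.040 and 0.034 and Wtap 0.32, 0.41 and 0.41. Wtap in the interaction was 0.046 with a pseudocount of 0.1, and with sample weights Mettl3 in TI against AG was 0.023 and Fto in TIM against TI 0.0029. Leaving out a library gave -0.031 to 0.069 for Ythdf1 and -0.10 to 0.056 for Fto in TIM against TI, and in the interaction -0.079 to 0.079 for Wtap and -0.0065 to 0.079 for Ythdc1. Of 456 recomputed values under the other alternatives, 382 kept direction and call, and of 1416 that left out a library, 1336 did. Depth limits Mettl14 most, with 112 reads in its lowest library. The added alternatives, limma-voom on genes with 10 reads and the exact test of Mettl14 on FPKM, were chosen after seeing the data.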
